A study of Mus musculus with 11 samples.

Results

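The genes described here were 41 mouse antiviral effectors that type I interferon is known to induce, read from RNA of cultured adult microglia, the resident macrophages of the brain. They were chosen by symbol from a table of 34745 genes, with the added requirement of at least 1 FPKM (fragments per kilobase of transcript, scaled to mapped fragments in the library) in at least 2 of 11 libraries. That requirement was met by 41 of the 41 genes and by 10938 genes of the table. Of the 41, 32 reached 1 FPKM in each of the 3 Control libraries and 6 did so in fewer than 2 of them, so those 6 entered through treated libraries. The microglia were prepared from the cerebrum of C57BL/6 mice at an age of 6 to 8 weeks and kept in culture for a total of 10 to 14 days. All 4 groups shared this culture, in medium holding TGF-beta1 (5 ng/ml) plus M-CSF (10 ng/ml). The combined group (Pam3CSK4+IFN-gamma, n = 3) had the lipopeptide Pam3CSK4 (100 ng/ml, 24 h) and then IFN-gamma (20 ng/ml, 24 h). The Pam3CSK4 group (n = 2) had the lipopeptide alone, the IFN-gamma group (n = 3) had the interferon alone, and the Control group (n = 3) had neither. The labels do not say whether Pam3CSK4 remained in the medium during IFN-gamma, when the single-agent and Control cells were harvested, or whether replicates came from separate mice or cultures, so p-values measure the spread between these libraries, which may be technical.

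As background, Pam3CSK4 is a synthetic bacterial-type lipopeptide that activates Toll-like receptor 2 (TLR2) together with TLR1 and signals through the adaptor Myd88. Type I interferons signal through the receptor chains Ifnar1 and Ifnar2 to a transcription factor complex that includes Stat2 and Irf9 and binds the interferon-stimulated response element in the promoters of antiviral genes. IFN-gamma binds the receptor chains Ifngr1 and Ifngr2, and its direct target genes carry the gamma-activated site. Many antiviral genes respond to both kinds of interferon. In microglia these genes are known from viral encephalitis and as an interferon-responsive state in aged and diseased brain.

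Promoter windows are shown for Ifit1, Rsad2, Ddx60, Phf11b and Samhd1, whose levels with the 2 agents differed under every setting tried, and for Isg15, for which no such difference was called. Ifitm1 also differed under every setting, but the promoter letters searched here were not in its window, which is not shown. Each window holds 125 bases on the gene's own strand, from RefSeq, build GRCm38.p6 (the same assembly as mm10). Capitals mark GAAA, any 2 bases and GAAA on either strand, the core of the interferon-stimulated response element, in the first 5 windows, which end at the base before the annotated start.
Isg15, chr4:156200819-156200943, minus strand: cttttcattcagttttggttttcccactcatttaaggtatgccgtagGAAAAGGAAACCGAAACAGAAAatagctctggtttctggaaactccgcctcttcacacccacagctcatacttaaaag
Ifit1, chr19:34640764-34640888, plus strand: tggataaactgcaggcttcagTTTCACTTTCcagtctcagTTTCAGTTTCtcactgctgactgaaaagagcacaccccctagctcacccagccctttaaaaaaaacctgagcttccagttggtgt
Rsad2, chr12:26456453-26456577, minus strand: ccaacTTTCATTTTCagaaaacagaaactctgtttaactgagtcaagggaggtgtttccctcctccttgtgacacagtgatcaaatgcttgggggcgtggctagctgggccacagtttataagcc
Ddx60, chr8:61927962-61928086, plus strand: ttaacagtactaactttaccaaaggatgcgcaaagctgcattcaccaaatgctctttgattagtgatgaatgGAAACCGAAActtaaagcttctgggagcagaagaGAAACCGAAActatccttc
Phf11b, chr14:59341331-59341455, minus strand: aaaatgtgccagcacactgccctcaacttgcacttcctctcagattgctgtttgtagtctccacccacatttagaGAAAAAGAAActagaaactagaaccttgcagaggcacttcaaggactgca
The window of Samhd1 starts 250 bases before its annotated start, and its capitals mark TTCNNNGAA, the letters of the gamma-activated site.
Samhd1, chr2:157135222-157135346, minus strand: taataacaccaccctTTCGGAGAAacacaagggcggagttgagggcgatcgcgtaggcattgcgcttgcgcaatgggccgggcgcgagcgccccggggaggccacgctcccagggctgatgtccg
Isg15 held 3 overlapping copies of the response element core, Ifit1 and Ddx60 held 2 separate copies each, and Rsad2 and Phf11b held 1 each.

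A promoter entry was found for 34 of the 41 genes (none for Mx1, Mx2, Rtp4, Usp18, Ifi27l2a, Oas2 and Tor3a). In the 250 bases before the start, searched on both strands, the response element core was present in 13 of the 34 (38.2%), against 3.46% of 27025 genes with a promoter entry. TTCNNNGAA was present in 6 of the 34 (17.6%), against 8.13% of those genes. The letters GGGA, any base and TTTCC, 1 form of the kappaB site, were present in 0 of the 34, against 0.414%. The first 2 kinds of match overlapped in 1 place, in the promoter of Bst2. These matches describe letters in a window and were not tested as binding sites.

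Libraries held 15033702 to 20321017 counts. The microglial marker list (10 genes measured) summed to 4646 to 9019 FPKM per library, at 4646 to 4906 FPKM in combined libraries, 4968 to 5261 FPKM in Pam3CSK4 libraries, 8133 to 8821 FPKM in IFN-gamma libraries and 6017 to 9019 FPKM in Controls. Of these 10, 1 rose and 8 fell with both agents, 1 rose and 7 fell with Pam3CSK4, and 2 rose and 3 fell with IFN-gamma. Markers of T and NK cells summed to at most 0.288 FPKM and of B cells to at most 0.246 FPKM in any library. Astrocyte markers summed to 31.1 FPKM and neuron markers to 6.94 FPKM in Control replicate 3, and neuron markers to 10.7 FPKM in IFN-gamma replicate 1. Sums in any library reached 28.8 FPKM for endothelial, 15.3 FPKM for oligodendrocyte, 11.45 FPKM for neutrophil and 7.04 FPKM for plasmacytoid dendritic markers. Markers of mural cells and fibroblasts (10 genes) summed to 2212 FPKM in Control replicate 3, 120.6 FPKM in IFN-gamma replicate 1, 55.6 FPKM in combined replicate 3 and at most 3.84 FPKM in the other 8 libraries. Control replicate 3 also gave the lowest Control value of 36 of the 41 genes (87.8%), against 33.5% of all genes tested, and its part in each result was not tested beyond fits without it. In bulk RNA, fewer cells of a type and less RNA per cell cannot be told apart.

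The antiviral genes were higher after Pam3CSK4, after IFN-gamma and after both. Against Control, 37 of 41 rose with both agents, 36 with Pam3CSK4 alone and 38 with IFN-gamma alone, and none fell in the 3 comparisons (edgeR quasi-likelihood test, two-sided, Benjamini-Hochberg adjusted p under 0.05 over 10938 genes). Among all genes tested, 23.4% rose and 24.2% fell with both, 20.0% rose and 21.4% fell with Pam3CSK4 alone, and 20.0% rose and 21.6% fell with IFN-gamma alone. The median log2 change of the 41 was 2.44 with both, 1.88 with Pam3CSK4 alone and 1.69 with IFN-gamma alone, while the medians over all genes tested were -0.04, -0.04 and -0.07. Among the 35 genes at 1 FPKM or more in at least 2 Controls, which did not need a treated library to enter, 33 rose with both, 31 with Pam3CSK4 and 33 with IFN-gamma (a count added after the values were seen). These 3 comparisons share the Control libraries. Without those 3 libraries that held stromal markers (above), 39, 37 and 38 of the 41 rose. The shares over all genes given here are those of the fit with all 11 libraries.

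**Figure D1:**
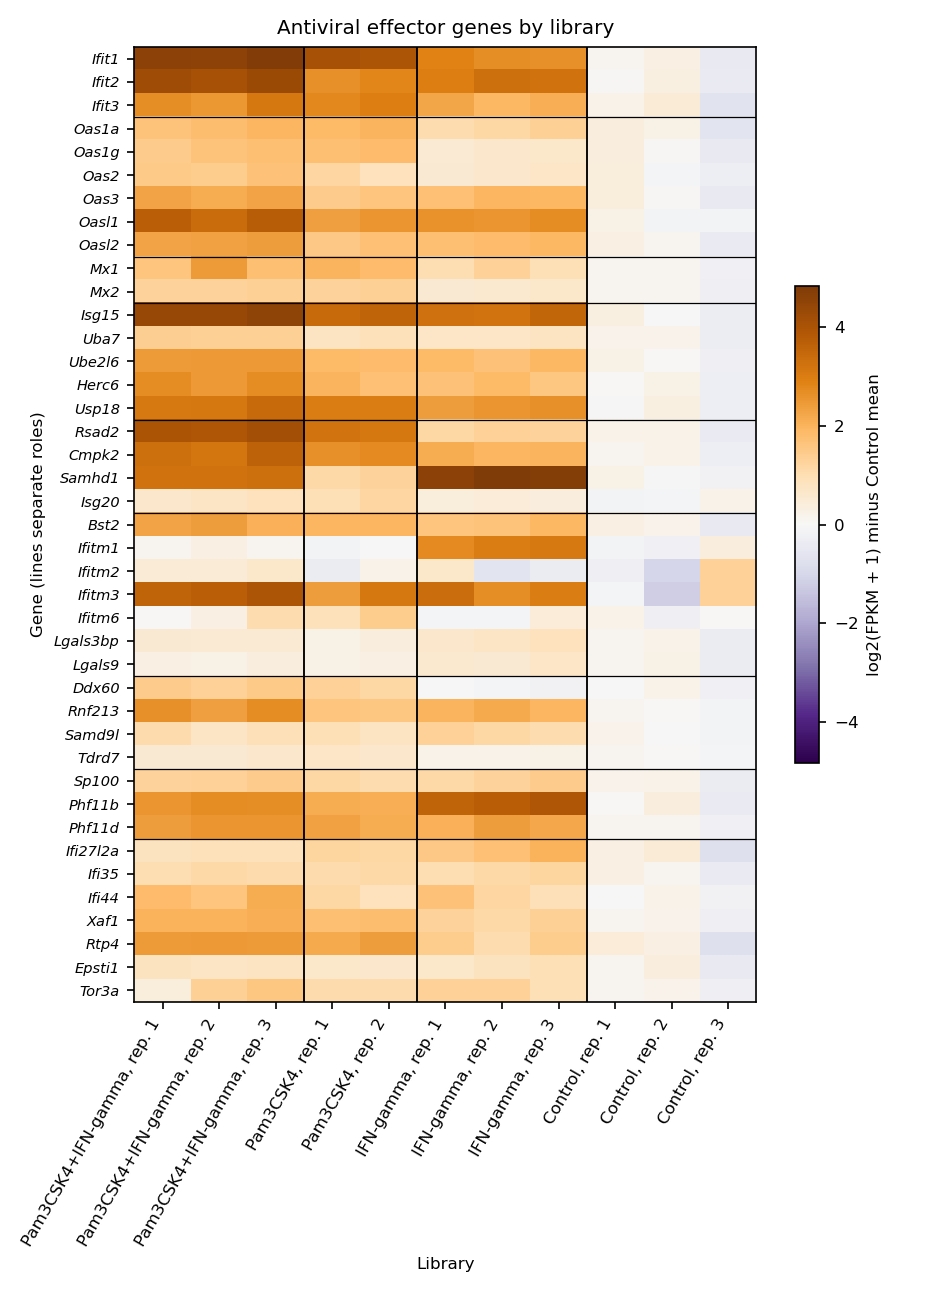
Level of each of the 41 genes (rows, lines separating roles) in each of the 11 libraries (columns), as log2(FPKM + 1) minus the Control mean. Most rows are higher in the 8 treated libraries than in the Controls, Samhd1 and Phf11b are highest in the IFN-gamma columns, and Ddx60 is high in the combined and Pam3CSK4 columns.

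Rises with each single agent were called for 34 of the 41 genes. Among all genes tested, 20.0% rose with Pam3CSK4 alone and 20.0% with IFN-gamma alone, and the share that rose with each was not counted. Ifitm1, Lgals3bp, Lgals9 and Epsti1 passed the test with IFN-gamma and not with Pam3CSK4. Ifitm6 and Ddx60 passed with Pam3CSK4 and not with IFN-gamma. Ifitm2 passed with neither. Set directly against each other, the agents differed by call in Ifitm1 and Ddx60, and not in Lgals3bp, Lgals9, Epsti1 or Ifitm6. Where no direct difference was called, a missing call with an agent is not evidence of no rise. Calls past the threshold under every alternative setting run numbered 35 of 37 with both, 30 of 36 with Pam3CSK4 and, leaving out Ifitm1, which met the FPKM filter in IFN-gamma libraries alone, 33 of 37 with IFN-gamma. The Pam3CSK4 calls that were lost include that of Ifitm6, which met the FPKM filter only in libraries given Pam3CSK4. How many calls over all genes held under every setting was not counted.

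The Ifit proteins bind viral RNA that lacks the marks of host messenger RNA. The 3 genes measured lie within 99.3 kb on chromosome 19 (34550694 to 34650009, mm10), and each rose with either agent. Ifit1 had 80.4, 78.4 and 91.1 FPKM in combined libraries, 55.3 and 52.0 FPKM in Pam3CSK4 libraries, 24.3, 20.7 and 19.9 FPKM in IFN-gamma libraries, and 2.73, 3.09 and 1.54 FPKM in Controls. The 4 groups did not overlap and ranked combined, Pam3CSK4, IFN-gamma, Control. Its log2 change against Control was 5.16 ± 0.28 with both, 4.42 ± 0.28 with Pam3CSK4 alone and 3.22 ± 0.26 with IFN-gamma alone (SE; edgeR adjusted p = 9.16e-07, 5.48e-06 and 1.66e-05). Ifit2 had 140.2, 126 and 146 FPKM in combined libraries, 46.4 and 52.3 FPKM in Pam3CSK4 libraries, 58.7, 73.6 and 70.8 FPKM in IFN-gamma libraries, and 6.89, 8.51 and 4.78 FPKM in Controls. Here the IFN-gamma libraries stood above the Pam3CSK4 libraries without a called difference (log2 -0.57 ± 0.25, edgeR adjusted p = 0.0996), while the combined libraries were the highest 3. Its log2 change was 4.42 ± 0.25 with both, 2.84 ± 0.25 with Pam3CSK4 alone and 3.42 ± 0.24 with IFN-gamma alone. Ifit3 had 64.0, 57.9 and 87.4 FPKM in combined libraries, 68.7 and 79.0 FPKM in Pam3CSK4 libraries, 47.7, 37.4 and 42.6 FPKM in IFN-gamma libraries, and 10.7, 13.2 and 5.51 FPKM in Controls. Combined and Pam3CSK4 libraries of Ifit3 overlapped, and its log2 change was 2.90 ± 0.33 with both, 2.87 ± 0.35 with Pam3CSK4 alone and 2.19 ± 0.32 with IFN-gamma alone. Of the distinct 50-base stretches of Ifit3 transcripts, 51.2% also occur in Ifit3b, so the division of reads between the 2 genes is uncertain.

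The OAS enzymes make an oligoadenylate messenger that activates the nuclease RNase L when double-stranded RNA is present. Each of the 6 measured rose with either agent. Oas1a had 46.7, 51.2 and 57.6 FPKM in combined libraries, 54.7 and 58.6 FPKM in Pam3CSK4 libraries, 30.0, 32.6 and 37.5 FPKM in IFN-gamma libraries, and 18.4, 17.1 and 8.95 FPKM in Controls. The combined and Pam3CSK4 libraries overlapped and stood above the IFN-gamma libraries, which stood above the Controls. Neither group's difference from IFN-gamma was called for Oas1a. Oas1a and Oas1g share sequence (57.6% of the distinct 50-base stretches of Oas1a and 45.7% of those of Oas1g occur in another gene, mostly in each other), so their separate values are uncertain. Oasl2, which in mice is an active synthetase, had 27.3, 27.8 and 29.2 FPKM in combined libraries, 15.7 and 17.7 FPKM in Pam3CSK4 libraries, 18.5, 19.5 and 20.8 FPKM in IFN-gamma libraries, and 5.92, 5.26 and 3.31 FPKM in Controls. Oas3, the largest of the family, had 14.0, 12.6 and 14.3 FPKM in combined libraries, 7.46 and 8.37 FPKM in Pam3CSK4 libraries, 9.24, 10.9 and 10.6 FPKM in IFN-gamma libraries, and 3.07, 2.21 and 1.29 FPKM in Controls. In Oasl2 and Oas3 the order of the single agents was the other way, with the IFN-gamma libraries above the Pam3CSK4 libraries, though neither difference was called (log2 -0.35 ± 0.24, edgeR adjusted p = 0.288, and -0.49 ± 0.31, adjusted p = 0.249). Oasl1, which in mice restrains translation of Irf7, was under 1 FPKM in each Control and reached 14.6 to 19.4 FPKM in combined libraries, with log2 changes of 5.20 ± 0.32 with both, 3.81 ± 0.32 with Pam3CSK4 alone and 4.12 ± 0.30 with IFN-gamma alone. Oas1g and Oas2 rose by less with IFN-gamma (0.84 ± 0.28 and 1.03 ± 0.29). The IFN-gamma call was lost under some settings for both, with edgeR adjusted p up to 0.11 for Oas1g and 0.065 for Oas2 in the fit of the 6 IFN-gamma and Control libraries alone, and the Pam3CSK4 call of Oas2 reached 0.058 in the fit of the Pam3CSK4 and Control libraries alone.

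Mx proteins are dynamin-like GTPases that, in mouse strains with functional copies, block virus replication, Mx1 in the nucleus and Mx2 in the cytoplasm. Only RNA was measured here, and whether the strain used makes functional Mx protein was not tested. Mx1 had 6.53, 12.6 and 7.36 FPKM in combined libraries, 8.72 and 7.96 FPKM in Pam3CSK4 libraries, 3.92, 5.17 and 3.84 FPKM in IFN-gamma libraries, and 1.63, 1.69 and 1.15 FPKM in Controls. Combined replicate 2 stood apart from the other 2 combined libraries, which were below both Pam3CSK4 libraries. Mx2 had 3.36, 3.39 and 3.69 FPKM in combined libraries, 3.44 and 3.62 FPKM in Pam3CSK4 libraries, 1.71, 1.78 and 1.92 FPKM in IFN-gamma libraries, and 0.971, 1.01 and 0.551 FPKM in Controls. Its combined and Pam3CSK4 libraries overlapped and stood above the IFN-gamma libraries. The log2 change of Mx1 was 2.65 ± 0.29 with both, 2.46 ± 0.31 with Pam3CSK4 alone and 1.62 ± 0.29 with IFN-gamma alone, and that of Mx2 was 2.12 ± 0.24 with both, 2.03 ± 0.26 with Pam3CSK4 alone and 1.18 ± 0.24 with IFN-gamma alone.

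Isg15 is a ubiquitin-like protein that is attached to other proteins by Uba7 (the activating enzyme), Ube2l6 (the conjugating enzyme) and, in mice, Herc6 (the main ligase), and is removed by Usp18, which also restrains signalling at Ifnar2. The 5 genes rose with each agent alone and with both. Isg15 had 259, 255 and 286 FPKM in combined libraries, 133 and 147 FPKM in Pam3CSK4 libraries, 119, 112 and 142 FPKM in IFN-gamma libraries, and 14.8, 11.5 and 8.87 FPKM in Controls. Pam3CSK4 and IFN-gamma libraries overlapped, combined libraries were the highest 3, and the log2 change was 4.59 ± 0.23 with both, 3.56 ± 0.23 with Pam3CSK4 alone and 3.50 ± 0.22 with IFN-gamma alone (edgeR adjusted p = 5.73e-07, 5.8e-06 and 3.33e-06). Ube2l6 had 41.9, 43.1 and 43.0 FPKM in combined libraries, 27.9 and 27.4 FPKM in Pam3CSK4 libraries, 28.0, 24.5 and 29.1 FPKM in IFN-gamma libraries, and 8.38, 7.15 and 5.68 FPKM in Controls. The same order held, with overlapping single-agent libraries and log2 changes of 2.67 ± 0.17 with both, 1.94 ± 0.18 with Pam3CSK4 alone and 2.03 ± 0.17 with IFN-gamma alone. Usp18 had 26.1, 27.0 and 33.3 FPKM in combined libraries, 25.0 and 25.0 FPKM in Pam3CSK4 libraries, 16.1, 17.9 and 19.1 FPKM in IFN-gamma libraries, and 2.06, 3.06 and 1.67 FPKM in Controls. For Usp18 the Pam3CSK4 libraries stood above the IFN-gamma libraries without a called difference (log2 0.38 ± 0.24, edgeR adjusted p = 0.251). Herc6 rose by 3.09 ± 0.22 with both, 2.15 ± 0.23 with Pam3CSK4 alone and 2.12 ± 0.21 with IFN-gamma alone on the log2 scale, and Uba7 by 1.57 ± 0.18 with both, 0.88 ± 0.19 with Pam3CSK4 alone and 0.90 ± 0.17 with IFN-gamma alone. In the fit of the Pam3CSK4 and Control libraries alone, the Pam3CSK4 call of Uba7 had an edgeR adjusted p of 0.055.

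Among enzymes that act on nucleotides and nucleic acids, the 2 agents gave opposite orders. Rsad2 (viperin) makes a chain-terminating nucleotide that stops viral polymerases, and Cmpk2 is a nucleotide kinase encoded beside it within a 37.1 kb stretch of chromosome 12 (26442753 to 26479835, mm10). Rsad2 had 43.7, 40.9 and 48.3 FPKM in combined libraries, 24.7 and 23.4 FPKM in Pam3CSK4 libraries, 5.30, 5.98 and 5.83 FPKM in IFN-gamma libraries, and 2.23, 2.26 and 1.11 FPKM in Controls. The groups did not overlap, and the log2 change was 4.64 ± 0.29 with both, 3.65 ± 0.29 with Pam3CSK4 alone and 1.69 ± 0.26 with IFN-gamma alone (edgeR adjusted p = 2.29e-06, 1.77e-05 and 0.000901). Cmpk2 had 19.2, 17.2 and 23.7 FPKM in combined libraries, 11.7 and 12.7 FPKM in Pam3CSK4 libraries, 8.04, 6.83 and 6.94 FPKM in IFN-gamma libraries, and 1.16, 1.32 and 0.664 FPKM in Controls. The order was that of Rsad2, with log2 changes of 4.33 ± 0.27 with both, 3.51 ± 0.27 with Pam3CSK4 alone and 2.88 ± 0.26 with IFN-gamma alone. The difference between the single agents was not called for Cmpk2. Samhd1, which breaks down deoxynucleotides and so starves retroviral reverse transcription, had 84.7, 84.7 and 89.7 FPKM in combined libraries, 18.4 and 21.0 FPKM in Pam3CSK4 libraries, 217, 259 and 243 FPKM in IFN-gamma libraries, and 9.64, 7.72 and 7.05 FPKM in Controls. Here the IFN-gamma libraries were the highest 3 and the Pam3CSK4 libraries lay nearest to the Controls, with log2 changes of 3.49 ± 0.17 with both, 1.25 ± 0.17 with Pam3CSK4 alone and 4.97 ± 0.18 with IFN-gamma alone (edgeR adjusted p = 4.85e-07, 0.000366 and 1.29e-07). Isg20, an exonuclease, stayed low, at 1.97 to 2.48 FPKM in combined libraries, 2.74 to 3.33 FPKM in Pam3CSK4 libraries, 1.45 to 1.56 FPKM in IFN-gamma libraries and 0.738 to 1.23 FPKM in Controls.

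Of the 7 genes for proteins that act at membranes or outside the cell, Bst2 (tetherin), which holds budding virions at the cell surface, had 1033, 1112 and 883 FPKM in combined libraries, 804 and 807 FPKM in Pam3CSK4 libraries, 639, 662 and 792 FPKM in IFN-gamma libraries, and 251, 235 and 154 FPKM in Controls. Treated and Control libraries did not overlap, and the log2 change was 2.32 ± 0.23 with both, 1.88 ± 0.24 with Pam3CSK4 alone and 1.79 ± 0.22 with IFN-gamma alone. Lgals3bp, a secreted glycoprotein, had 513, 495 and 496 FPKM in combined libraries, 415 and 448 FPKM in Pam3CSK4 libraries, 534, 584 and 628 FPKM in IFN-gamma libraries, and 387, 408 and 274 FPKM in Controls. Its changes were small, 0.57 ± 0.18 with both, 0.25 ± 0.20 with Pam3CSK4 alone and 0.80 ± 0.18 with IFN-gamma alone, and the Pam3CSK4 change was not called (edgeR adjusted p = 0.35). The combined call of Lgals3bp was lost without any 1 of the 3 combined libraries and in the fit of the combined and Control libraries alone, with adjusted p up to 0.076. Lgals9, a galectin, had 67.1, 65.7 and 70.7 FPKM in combined libraries, 64.6 and 66.2 FPKM in Pam3CSK4 libraries, 82.5, 80.6 and 90.0 FPKM in IFN-gamma libraries, and 58.3, 65.3 and 42.7 FPKM in Controls. It rose with IFN-gamma (log2 0.69 ± 0.17, edgeR adjusted p = 0.0113, and 0.053 in the fit of the 6 libraries compared) and did not pass the test with both (0.37 ± 0.17, adjusted p = 0.111) or with Pam3CSK4 (0.21 ± 0.19, adjusted p = 0.419).

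The Ifitm proteins block fusion of viruses with cell membranes. Their 4 genes lie within 62.1 kb of chromosome 7 (140954839 to 141016892, mm10). Set directly against each other, Pam3CSK4 and IFN-gamma gave no called difference for Ifitm2, Ifitm3 or Ifitm6. Ifitm3 had 325, 355 and 421 FPKM in combined libraries, 146 and 237 FPKM in Pam3CSK4 libraries, 277, 173 and 222 FPKM in IFN-gamma libraries, and 24.5, 11.0 and 66.6 FPKM in Controls. Treated and Control libraries did not overlap, and the log2 change was 3.58 ± 0.53 with both, 2.53 ± 0.54 with Pam3CSK4 alone and 2.87 ± 0.52 with IFN-gamma alone. In the fit of the Pam3CSK4 and Control libraries alone the Pam3CSK4 call of Ifitm3 had an edgeR adjusted p of 0.056. Ifitm1 had 0.266, 0.415 and 0.235 FPKM in combined libraries, 0.0419 and 0.148 FPKM in Pam3CSK4 libraries, 6.74, 8.20 and 8.78 FPKM in IFN-gamma libraries, and 0.0510, 0 and 0.471 FPKM in Controls. The gene was high in the 3 IFN-gamma libraries and at or under 0.471 FPKM in the other 8. It passed the FPKM filter through the IFN-gamma libraries alone, so its calls that involve that group rest on values that admitted it and are given as a description. Its log2 change with IFN-gamma was 5.57 ± 0.86. With both agents its log2 change against Control was 0.89 ± 0.84 (edgeR adjusted p = 0.412), and the combined group was below IFN-gamma by a log2 difference of -4.68 ± 0.81. Its Control total was 12 counts, so fitted changes against Control are imprecise. Ifitm2 had 44.7, 45.0 and 51.9 FPKM in combined libraries, 24.8 and 37.7 FPKM in Pam3CSK4 libraries, 52.2, 20.7 and 25.0 FPKM in IFN-gamma libraries, and 27.1, 15.1 and 80.0 FPKM in Controls. The highest value was in Control replicate 3, where the mural and fibroblast markers summed to 2212 FPKM, and the treated libraries lay within the range of the Controls. Of the distinct 50-base stretches of Ifitm2, 48.5% occur in another gene. Ifitm6 had 0.183, 0.455 and 1.42 FPKM in combined libraries, 1.21 and 2.14 FPKM in Pam3CSK4 libraries, 0.111, 0.0989 and 0.612 FPKM in IFN-gamma libraries, and 0.369, 0 and 0.207 FPKM in Controls. The rise of Ifitm6 with Pam3CSK4 (log2 3.04 ± 1.06, edgeR adjusted p = 0.0439) rested on 5 Control counts in all and was lost under 8 of 18 settings, 6 of them single-library omissions, with adjusted p up to 0.18 without Pam3CSK4 replicate 2. Ifitm6 passed the FPKM filter through Pam3CSK4-treated libraries alone, so its Pam3CSK4 call rests on values that admitted it and is given as a description.

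**Figure D2:**
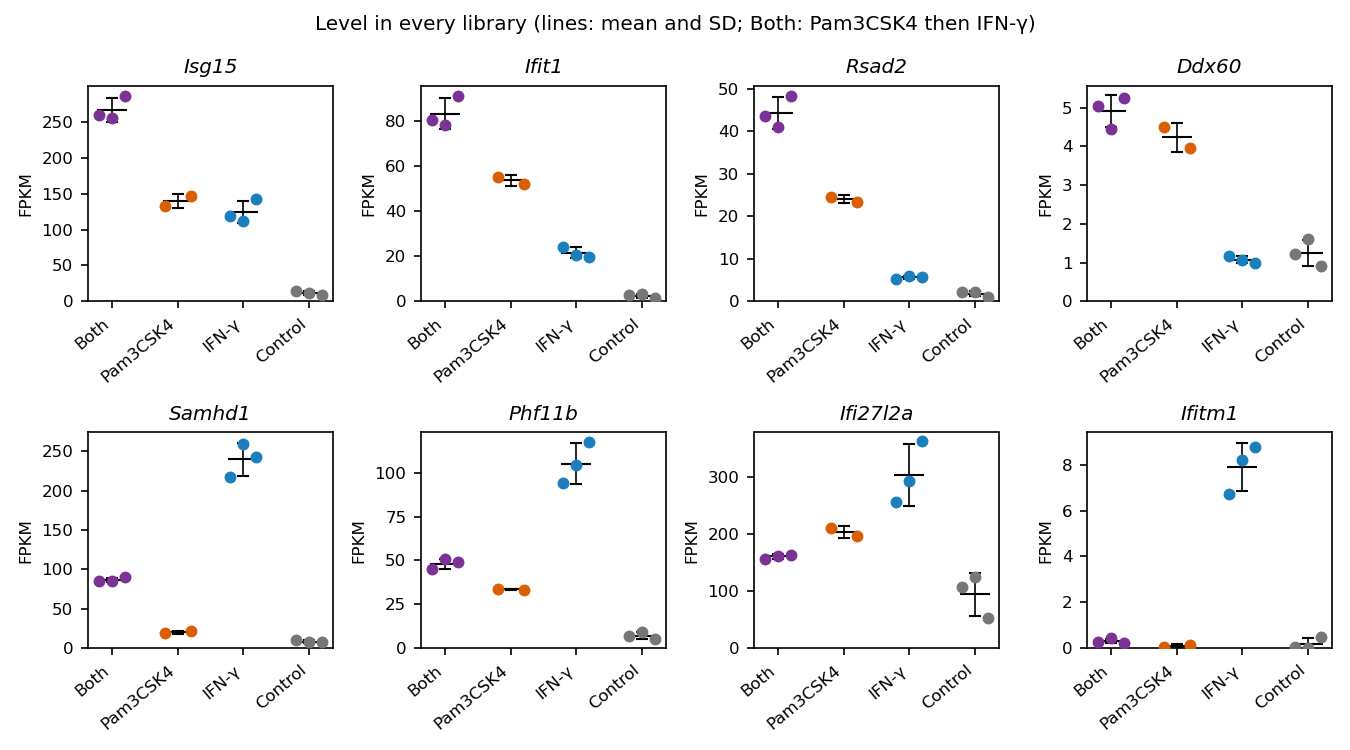
FPKM of 8 genes in every library, by group (combined group, Pam3CSK4, IFN-gamma, Control); points are libraries, and the black marks are the mean and SD (n = 3, 2, 3 and 3). Isg15, Ifit1 and Rsad2 were highest in the combined libraries, Ddx60 was high in the combined and Pam3CSK4 libraries, and Samhd1, Phf11b, Ifi27l2a and Ifitm1 were highest in the IFN-gamma libraries.

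Ddx60 is a helicase-like protein that assists cytosolic RNA sensing, Rnf213 a giant ubiquitin ligase, Samd9l a cytosolic restriction factor of poxviruses, and Tdrd7 a Tudor-domain protein. Ddx60 had 5.04, 4.44 and 5.26 FPKM in combined libraries, 4.50 and 3.96 FPKM in Pam3CSK4 libraries, 1.17, 1.07 and 0.997 FPKM in IFN-gamma libraries, and 1.21, 1.60 and 0.923 FPKM in Controls. The 3 IFN-gamma libraries lay within the range of the Controls (log2 change -0.12 ± 0.20, edgeR adjusted p = 0.649), while the gene rose by 2.05 ± 0.21 with both and by 1.73 ± 0.22 with Pam3CSK4 alone (adjusted p = 3.89e-05 and 0.000256). Rnf213 had 43.4, 36.5 and 46.2 FPKM in combined libraries, 20.9 and 20.6 FPKM in Pam3CSK4 libraries, 27.6, 31.9 and 26.7 FPKM in IFN-gamma libraries, and 6.79, 6.37 and 5.57 FPKM in Controls. Its groups did not overlap and ranked combined, IFN-gamma, Pam3CSK4, Control, with log2 changes of 2.83 ± 0.14 with both, 1.71 ± 0.15 with Pam3CSK4 alone and 2.30 ± 0.14 with IFN-gamma alone. Samd9l had 6.87, 5.25 and 5.99 FPKM in combined libraries, 6.22 and 5.31 FPKM in Pam3CSK4 libraries, 8.24, 7.28 and 6.64 FPKM in IFN-gamma libraries, and 3.18, 2.63 and 2.39 FPKM in Controls. Combined libraries overlapped those of each single agent, and the 8 treated libraries stood above the Controls. Tdrd7 had 14.5, 14.5 and 15.5 FPKM in combined libraries, 16.2 and 15.3 FPKM in Pam3CSK4 libraries, 11.5, 11.3 and 11.7 FPKM in IFN-gamma libraries, and 10.4, 9.79 and 9.00 FPKM in Controls. It already stood at 9.00 FPKM or more in Controls and changed least of the called genes in this role (0.69 ± 0.10 with both, 0.68 ± 0.11 with Pam3CSK4 alone and 0.34 ± 0.10 with IFN-gamma alone), and its IFN-gamma call had an edgeR adjusted p of 0.061 without IFN-gamma replicate 3 and in the fit of the 6 libraries compared.

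Sp100 is a component of nuclear bodies that silence viral genomes, and Phf11b and Phf11d are members of a zinc-finger family encoded within 44.5 kb on chromosome 14 (59320964 to 59365470, mm10). Phf11b had 44.8, 50.5 and 49.0 FPKM in combined libraries, 33.7 and 33.3 FPKM in Pam3CSK4 libraries, 94.1, 104 and 117 FPKM in IFN-gamma libraries, and 7.08, 9.24 and 4.95 FPKM in Controls. Its groups did not overlap and ranked IFN-gamma, combined, Pam3CSK4, Control, with log2 changes of 2.84 ± 0.24 with both, 2.21 ± 0.25 with Pam3CSK4 alone and 3.98 ± 0.25 with IFN-gamma alone. The difference of the combined group from Pam3CSK4 was not called for Phf11b. Phf11d had 12.7, 14.3 and 14.1 FPKM in combined libraries, 12.1 and 10.5 FPKM in Pam3CSK4 libraries, 9.94, 12.7 and 11.1 FPKM in IFN-gamma libraries, and 1.75, 1.87 and 1.23 FPKM in Controls. The IFN-gamma libraries overlapped those of both other treated groups, with log2 changes of 3.16 ± 0.20 with both, 2.78 ± 0.21 with Pam3CSK4 alone and 2.88 ± 0.20 with IFN-gamma alone. Sp100 had 10.3, 10.8 and 12.1 FPKM in combined libraries, 9.51 and 8.78 FPKM in Pam3CSK4 libraries, 9.35, 10.5 and 11.9 FPKM in IFN-gamma libraries, and 4.34, 4.44 and 2.71 FPKM in Controls. The treated libraries stood above the Controls in Sp100, with log2 changes of 1.60 ± 0.22 with both, 1.22 ± 0.24 with Pam3CSK4 alone and 1.55 ± 0.22 with IFN-gamma alone. Of the distinct 50-base stretches of Phf11b, 47.0% occur in another gene, so its level is uncertain. Sp100 overlaps the antisense gene Gm17017 (at most 2.45 FPKM), and with no strand setting given, their reads cannot be told apart.

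The remaining genes have less defined roles or act as regulators. Ifi27l2a, a small mitochondrial and membrane protein, had 156, 162 and 163 FPKM in combined libraries, 210.1 and 195 FPKM in Pam3CSK4 libraries, 256, 291 and 362 FPKM in IFN-gamma libraries, and 106, 123 and 51.8 FPKM in Controls. IFN-gamma libraries were the highest 3, with log2 changes of 0.83 ± 0.31 with both, 1.07 ± 0.34 with Pam3CSK4 alone and 1.77 ± 0.31 with IFN-gamma alone. The difference between the single agents was not called for Ifi27l2a. The combined call of Ifi27l2a was lost under 10 of 18 settings and its Pam3CSK4 call under 4, with edgeR adjusted p up to 0.11 and 0.12. Rtp4, a receptor transporter that modulates interferon responses, had 92.7, 95.0 and 90.9 FPKM in combined libraries, 76.5 and 88.8 FPKM in Pam3CSK4 libraries, 45.1, 34.3 and 44.5 FPKM in IFN-gamma libraries, and 22.2, 20.0 and 9.20 FPKM in Controls. It ranked combined, Pam3CSK4, IFN-gamma, Control without overlap, and changed by 2.50 ± 0.32 with both, 2.23 ± 0.34 with Pam3CSK4 alone and 1.34 ± 0.31 with IFN-gamma alone. For Rtp4 the differences of Pam3CSK4 from IFN-gamma and of the combined group from Pam3CSK4 were not called. Tor3a, a torsin-family ATPase, had 16.8, 33.1 and 39.1 FPKM in combined libraries, 27.6 and 27.8 FPKM in Pam3CSK4 libraries, 32.4, 32.2 and 25.7 FPKM in IFN-gamma libraries, and 13.3, 14.1 and 10.3 FPKM in Controls. Combined replicate 1 was the lowest treated library. The Pam3CSK4 call of Tor3a was lost without Pam3CSK4 replicate 1 (edgeR adjusted p = 0.064) and without Pam3CSK4 replicate 2 (0.079). Epsti1 had 15.0, 14.1 and 14.6 FPKM in combined libraries, 13.6 and 13.2 FPKM in Pam3CSK4 libraries, 13.4, 14.9 and 16.9 FPKM in IFN-gamma libraries, and 8.73, 10.7 and 5.70 FPKM in Controls. It rose with both (log2 0.87 ± 0.23, edgeR adjusted p = 0.0113) and with IFN-gamma (0.93 ± 0.23, adjusted p = 0.00974), and with Pam3CSK4 the change was 0.64 ± 0.25 (adjusted p = 0.0665). Xaf1, a pro-apoptotic factor, changed by 2.44 ± 0.18 with both, 2.03 ± 0.19 with Pam3CSK4 alone and 1.56 ± 0.17 with IFN-gamma alone, Ifi44 by 2.84 ± 0.32 with both, 1.64 ± 0.34 with Pam3CSK4 alone and 2.15 ± 0.32 with IFN-gamma alone and Ifi35 by 1.20 ± 0.21 with both, 1.12 ± 0.23 with Pam3CSK4 alone and 1.25 ± 0.21 with IFN-gamma alone. Ifi35 overlaps the antisense gene Gm11626 (at most 1.39 FPKM).

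**Figure D3:**
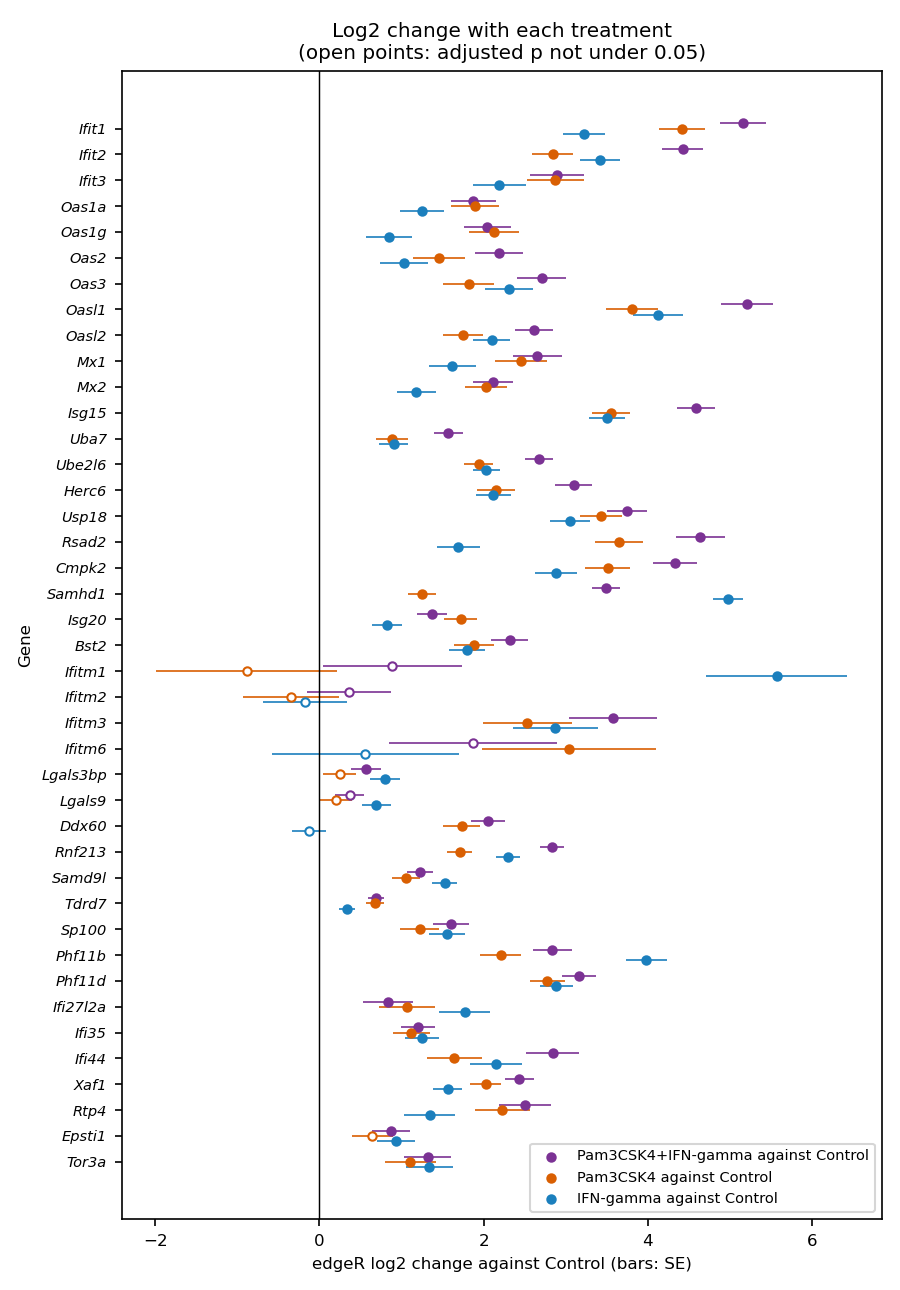
Log2 change against Control (edgeR, bars are SE) of the 41 genes with both agents, Pam3CSK4 alone and IFN-gamma alone; open points did not pass the threshold. Filled points lie to the right of 0 in each of the 3 comparisons. For Samhd1, Phf11b and Ifitm1 the IFN-gamma point lies to the right of the same gene's points with both agents and with Pam3CSK4 alone. Ifitm1 passed the FPKM filter through the IFN-gamma libraries alone.

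How much of the combined rise was present with each agent alone was described for the 37 genes that rose with both. The single-agent rise in mean FPKM was divided by the combined rise, and errors are SDs propagated from the libraries of each group. The median share was 73.5% with Pam3CSK4 alone and 54.6% with IFN-gamma alone. The larger share came with Pam3CSK4 in 21 genes and with IFN-gamma in 16, but scaling FPKM by the TMM factors moved the first count to 18 of 37 and the medians to 65.9% and 55.7%, so which agent gave the larger share in most genes depended on the scaling. Single-agent rises summed to over 100% of the combined rise in 26 genes and to under 100% in 11. Shares for Rsad2 were 52.3% ± 5.09 with Pam3CSK4 alone and 9.05% ± 1.82 with IFN-gamma alone. For Ifit2, also under 100% in sum, they were 32.7% ± 4.24 with Pam3CSK4 alone and 46.7% ± 7.19 with IFN-gamma alone. Isg15 had 50.4% ± 5.06 with Pam3CSK4 alone and 44.2% ± 6.88 with IFN-gamma alone. For Samhd1 the order was the opposite, 14.8% ± 2.77 with Pam3CSK4 alone and 296% ± 29.4 with IFN-gamma alone, so its IFN-gamma rise exceeded its combined rise. Phf11b had 64.4% ± 5.02 with Pam3CSK4 alone and 239% ± 33.9 with IFN-gamma alone. Ddx60 had 81.4% ± 14.1 with Pam3CSK4 alone and -4.56% ± 10.0 with IFN-gamma alone, a negative value because its IFN-gamma mean was under its Control mean. The share with Pam3CSK4 was lowest for Samhd1 and highest for Isg20 (164% ± 48.0 with Pam3CSK4 alone and 45.9% ± 15.0 with IFN-gamma alone).

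**Figure D4:**
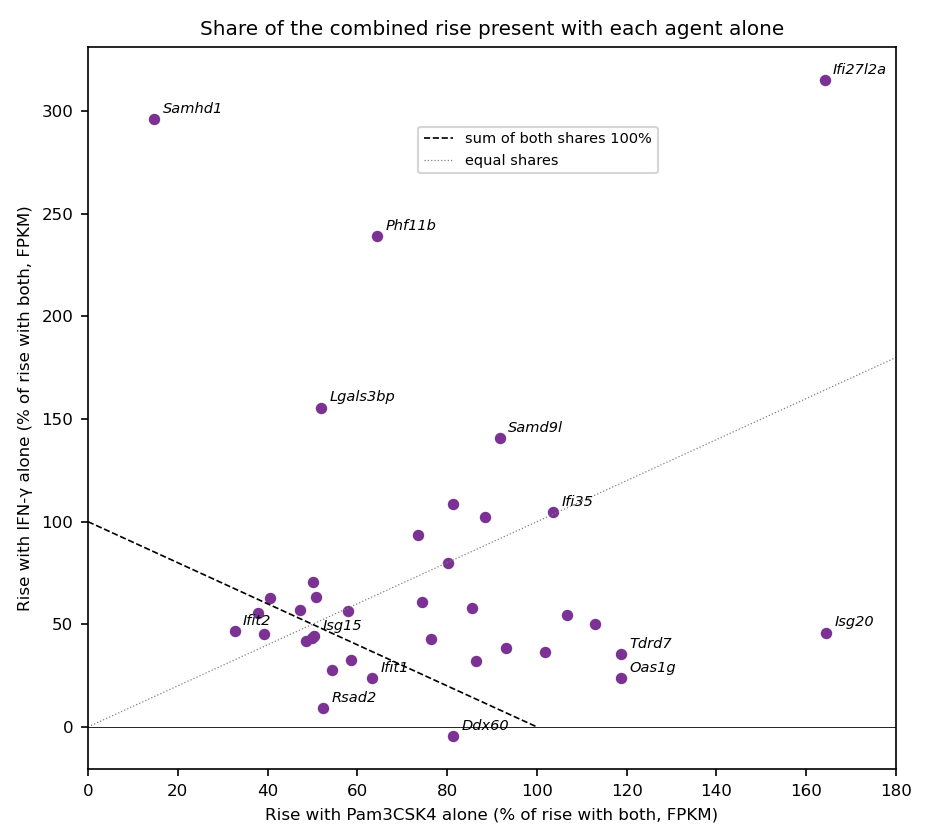
Share of the combined FPKM rise present with Pam3CSK4 alone (x axis, %) and with IFN-gamma alone (y axis, %) for the 37 genes that rose with both. Points below the dashed line have single-agent rises that sum to under 100%, as in 11 genes, and Rsad2 and Ddx60 lie near the x axis while Samhd1 and Phf11b lie above 200% on the y axis.

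Set directly against each other, Pam3CSK4 gave higher levels than IFN-gamma in 7 of the 41 genes and lower levels in 4 (17.1% and 9.76%), against 18.5% and 19.6% of all genes tested, so in this fit the counts were not above the background. The 7 were Ifit1, Oas1g, Mx2, Rsad2, Isg20, Ddx60 and Tdrd7, and the 4 were Samhd1, Ifitm1, Rnf213 and Phf11b. In log2 terms Rsad2 was higher with Pam3CSK4 by 1.96 ± 0.28, Ddx60 by 1.86 ± 0.22 and Ifit1 by 1.20 ± 0.26 (edgeR adjusted p = 0.000514, 0.000173 and 0.00534). Samhd1 differed by -3.72 ± 0.20 and Phf11b by -1.77 ± 0.26 (adjusted p = 1.31e-06 and 0.000635). Leaving out Ifitm1 for the filter reason above, these 5 of 10 calls held under every setting run. Rnf213 lost its call without either Pam3CSK4 library (adjusted p up to 0.075), Isg20 and Oas1g without Pam3CSK4 replicate 2 (0.063 and 0.05), Mx2 under 5 of 18 settings (up to 0.12) and Tdrd7 under 8 (up to 0.14). Without Control replicate 3, 13 genes were higher and 11 lower (31.7% and 26.8%, against 23.7% and 24.9% of all genes tested), and without the 3 libraries that held stromal markers 12 and 13 (29.3% and 31.7%, against 24.3% and 24.8%). The response element letters shown above were present in 5 of the 6 genes with a promoter entry that were higher with Pam3CSK4, in 1 of the 4 that were lower and in 7 of the 24 others, as a description.

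The combined group differed from IFN-gamma alone in more of the genes than from Pam3CSK4 alone, as it did among all genes tested. The Pam3CSK4 group held 2 libraries and the IFN-gamma group 3, and the difference between the counts was not tested. Against IFN-gamma alone, the combined group was higher in 20 of the 41 genes and lower in 4 (17.0% and 17.2% of all genes tested). Against Pam3CSK4 alone it was higher in 7 and lower in 0 (6.06% and 3.04% of all genes tested). The median log2 difference of the 41 was 0.64 against IFN-gamma and 0.41 against Pam3CSK4, with -0.018 and -0.001 over all genes. Ifit2, Oasl1, Isg15, Ube2l6, Herc6 and Rnf213 were above both single agents. Rsad2 was above IFN-gamma by 2.95 ± 0.27 on the log2 scale, Ddx60 by 2.18 ± 0.21 and Ifit1 by 1.94 ± 0.24 (edgeR adjusted p = 4.65e-05, 5.85e-05 and 0.000285), and their differences from Pam3CSK4 alone were 0.99 ± 0.29, 0.32 ± 0.22 and 0.74 ± 0.27 (adjusted p = 0.067, 0.457 and 0.13). Samhd1 lay between the single agents, -1.48 ± 0.16 from IFN-gamma and 2.24 ± 0.19 from Pam3CSK4 (adjusted p = 9.94e-05 and 8.01e-05). Phf11b was below IFN-gamma by a log2 difference of -1.14 ± 0.22 (adjusted p = 0.00356), as was Ifi27l2a (-0.93 ± 0.31, adjusted p = 0.0411), whose call was lost under 9 of 18 settings. Leaving out Ifitm1, 15 of the 23 calls against IFN-gamma held under every setting run, and against Pam3CSK4 2 of 7 did, those of Samhd1 and Rnf213. For Isg15 the difference from Pam3CSK4 was 1.03 ± 0.23 (adjusted p = 0.0207), with adjusted p up to 0.16 without Pam3CSK4 replicate 1. Without Control replicate 3, 17 genes were higher than with Pam3CSK4 alone (41.5%, against 10.8% of all genes tested).

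On the log2 scale the 2 agents added up to less than the sum of their separate changes in 23 of the 41 genes, and to more in 0 (8.01% of all genes tested in each direction). The interaction is the change of the combined group from IFN-gamma minus the change of Pam3CSK4 from Control, and its median over the 41 was -1.24, against 0.06 over all genes. The lowest called value was that of Phf11b (-3.35 ± 0.33, edgeR adjusted p = 0.000446), followed by Usp18 (-2.74 ± 0.33, adjusted p = 0.00119), Samhd1 (-2.73 ± 0.23, adjusted p = 0.000217) and Oasl1 (-2.73 ± 0.40, adjusted p = 0.00292). Isg15 had -2.47 ± 0.30 (adjusted p = 0.00116) although its combined level was above both single agents. In mean FPKM, its combined rise exceeded the sum of its single-agent rises. Among the 23, the same held for Ifit1, Ifit2, Oasl1, Herc6 and Cmpk2 and not for the others, which was not tested. Rsad2 and Ddx60 were not called (-0.71 ± 0.38 and 0.45 ± 0.30, adjusted p = 0.235 and 0.34). Of the 23 calls, 12 held under every setting run. Without Pam3CSK4 replicate 2 the count was 12 (3.26% of all genes tested were called lower), and without Control replicate 3 it was 30 (14.4%).

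The interferon pathway around these genes was read from 37 genes, of which 29 passed the FPKM filter. Of the 29, 17 rose and 1 fell with both agents, 14 rose and 3 fell with Pam3CSK4, and 15 rose and 3 fell with IFN-gamma. In the same order, rises were called in 23.4%, 20.0% and 20.0% of all genes tested, and falls in 24.2%, 21.4% and 21.6%. Stat2, a factor of type I interferon signalling, rose by 2.26 ± 0.16 with both, 1.39 ± 0.17 with Pam3CSK4 alone and 2.00 ± 0.15 with IFN-gamma alone on the log2 scale. Irf7, a factor that drives type I interferon genes, rose by 3.96 ± 0.26 with both, 3.20 ± 0.26 with Pam3CSK4 alone and 3.28 ± 0.25 with IFN-gamma alone. For Irf9, which contacts DNA at the response element, the log2 change passed the test with Pam3CSK4 (0.57 ± 0.18, edgeR adjusted p = 0.0306, lost without either Pam3CSK4 library, with the replicate block and with only the libraries compared, up to 0.127) and not with both (0.35 ± 0.16, adjusted p = 0.105) or IFN-gamma (0.17 ± 0.16, adjusted p = 0.423). Irf1, a transcription factor induced directly by IFN-gamma, had 82.5, 94.8 and 87.4 FPKM in combined libraries, 5.61 and 4.60 FPKM in Pam3CSK4 libraries, 135, 139 and 165 FPKM in IFN-gamma libraries, and 7.24, 6.58 and 6.18 FPKM in Controls. It was high where IFN-gamma had been given, and its Pam3CSK4 change was not called (-0.41 ± 0.16, adjusted p = 0.0692 with edgeR), though 4 of 18 alternatives called it lower, with adjusted p down to 0.0176 (DESeq2, limma, and edgeR without Control replicate 3 or the 3 libraries that held stromal markers). Socs1, a feedback inhibitor of the Jak kinases, rose by 7.81 ± 0.19 with both, 3.62 ± 0.17 with Pam3CSK4 alone and 8.47 ± 0.19 with IFN-gamma alone. The receptor chain Ifngr1 fell to 12.5, 13.4 and 12.2 FPKM in combined libraries, 16.7 and 16.3 FPKM in Pam3CSK4 libraries and 21.8, 25.9 and 25.1 FPKM in IFN-gamma libraries, against 52.7, 53.9 and 41.0 FPKM in Controls. The interferon-inducible GTPases, 17 genes tested and a companion list for IFN-gamma responses, had a median log2 change of 6.40 with both, 1.26 with Pam3CSK4 and 8.09 with IFN-gamma, and the 8 class II antigen presentation genes had 1.69, -0.56 and 6.43.

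**Figure D5:**
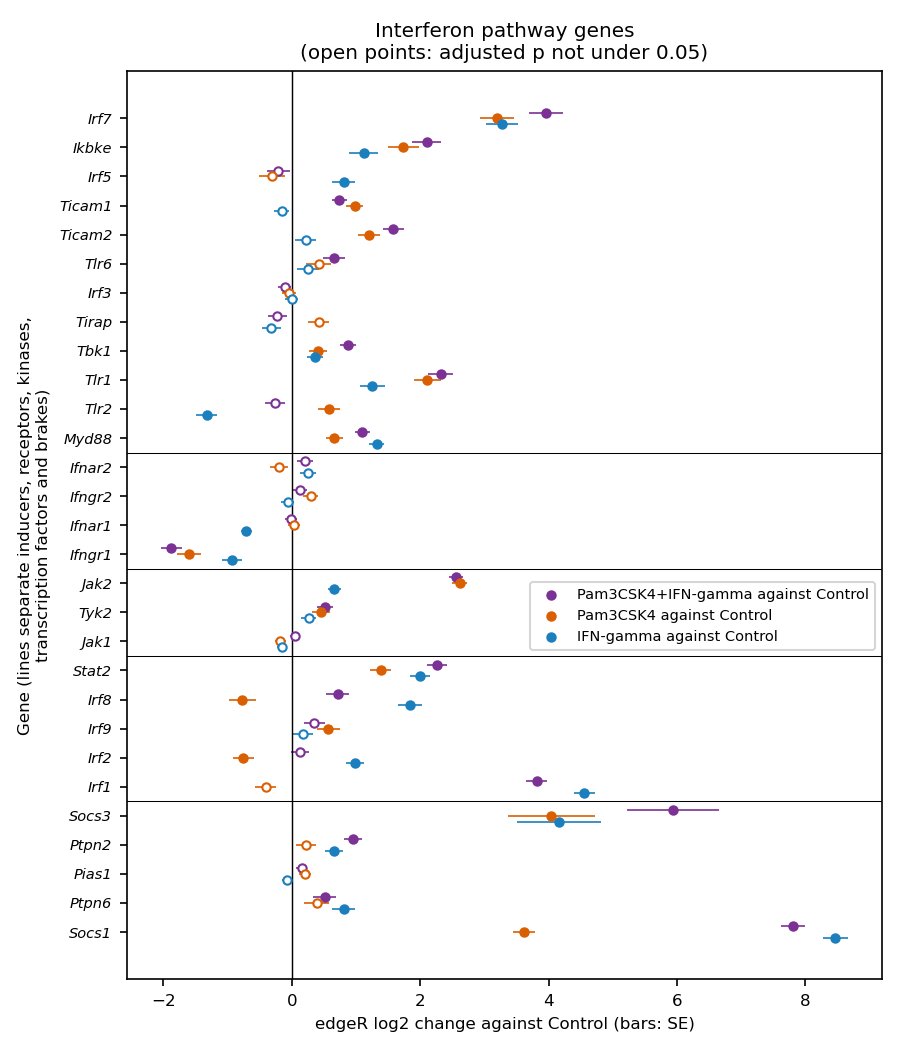
Log2 change against Control (edgeR, bars are SE) of the 29 pathway genes that passed the filter, by role; open points did not pass the threshold. Irf1 and Socs1 lie far to the right wherever IFN-gamma was given, and Stat2 and Irf7 lie to the right of 0 in each of the 3 comparisons.

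None of the 8 interferon genes looked for passed the filter. Ifnb1, the interferon gene with the most reads, had 9, 13 and 15 counts in combined libraries, 2 and 5 counts in Pam3CSK4 libraries, 3, 2 and 1 counts in IFN-gamma libraries and 0, 0 and 0 counts in Controls. Counts were present in each treated library and absent from the Controls. A floor of 3 counts over the 3 Controls together was set against the treated counts, scaled to library totals. The observed Ifnb1 counts were 10.0-fold the floor in the combined group, 3.36-fold with Pam3CSK4 and 1.94-fold with IFN-gamma. The floor limits the Control side alone, and the counting error of the treated counts is not included. In a fit with no FPKM filter, edgeR gave adjusted p = 0.00131, 0.0131 and 0.026. Ifna1, Ifna2, Ifna5 and Ifnl3 had 0 counts in each library, which is not evidence of absence at this depth. The counting floor covers counting error of the Controls only.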

How the data were processed

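Total RNA from 11 libraries in 4 groups was sequenced. The authors deposited 1 table with a read count and an FPKM value per gene and library, per the file headers. TopHat2 2.1.0, Cufflinks 2.1.1, Cuffdiff and mm10 appear in the submitters' processing notes without a role, while the counting tool, the annotation and the strand setting are not stated in those notes. Each deposited FPKM was the count over a gene constant and the library total, within a relative deviation of 4.81e-06 in 6617 genes. The edgeR 4.0.16 quasi-likelihood test (R 4.3.3) was applied to counts with TMM scaling and 4 group means over all 11 libraries, for genes with at least 1 FPKM in at least 2 libraries. Alternatives used DESeq2 1.42.0, limma 3.58.1 on log2(FPKM + 1), other scaling, no filter, a replicate block, only the libraries compared and each library left out. Scripts were tested on simulated data. Replicates differed by more than sampling noise. The annotation used for overlaps and shared sequence was GENCODE M21. Symbols on several rows (Gbp6 and Itgam) were not used. The pathway genes leave out 1 gene that is not reported here. The genes and lists were chosen with earlier results of these data known. Each of the 41 may be named, with values per library for the 3 most abundant of each role and for those not called with a single agent. The fit without 3 libraries that held stromal markers was chosen after seeing the data.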

Additional observations from a re-analysis of the deposited data

Results flagged for a closer look

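For 23 genes the effect of Pam3CSK4 differed with and without IFN-gamma by a test of the difference itself (interaction, edgeR adjusted p under 0.05). The log2 interaction was -2.48 for Ifit1, -1.83 for Ifit2, -2.17 for Ifit3, -1.41 for Oas3, -2.73 for Oasl1, -1.24 for Oasl2, -1.42 for Mx1, -2.47 for Isg15, -1.30 for Ube2l6, -1.17 for Herc6, -2.74 for Usp18, -2.05 for Cmpk2, -2.73 for Samhd1, -1.18 for Isg20, -1.36 for Bst2, -1.17 for Rnf213, -1.35 for Samd9l, -1.17 for Sp100, -3.35 for Phf11b, -2.50 for Phf11d, -2.00 for Ifi27l2a, -1.17 for Ifi35 and -1.15 for Xaf1. In these 23 genes the combined log2 change was smaller than the sum of the log2 changes with the single agents, and no explanation was tested. In mean FPKM, the combined rises of Ifit1, Ifit2, Oasl1, Isg15, Herc6 and Cmpk2 exceeded the sum of their single-agent rises. Of the 23 calls, 11 were lost under at least 1 setting, those of Xaf1, Isg20, Ifi35, Ifit3, Herc6, Mx1, Bst2, Sp100, Oasl2, Ifi27l2a and Oas3. Ifnb1, which lay outside the fitted genes, had 37 counts over the combined libraries, 7 over the Pam3CSK4 libraries and 6 over the IFN-gamma libraries, with 0 over the Controls.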

How the results depend on the processing

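Of 287 results (41 genes in 7 comparisons), 163 kept their call and direction under every setting run. DESeq2 called 11 genes higher and 8 lower for Pam3CSK4 against IFN-gamma (7 and 4 with edgeR) and 14 higher for the combined group against Pam3CSK4 (7 with edgeR). Limma called 14 and 13 higher in these 2 comparisons. Fits of the libraries compared alone called 14 higher and 10 lower for Pam3CSK4 against IFN-gamma and 24 higher for the combined group against Pam3CSK4. Without the 3 libraries that held stromal markers there were 12 higher and 13 lower for Pam3CSK4 against IFN-gamma, 18 higher for the combined group against Pam3CSK4 and 1 higher for the interaction. Leaving out 1 library at a time gave 3 to 13 higher and 3 to 11 lower for Pam3CSK4 against IFN-gamma, 2 to 17 higher for the combined group against Pam3CSK4, and 12 to 30 lower and 0 to 1 higher for the interaction. The cause of these shifts was not tested, beyond the number of libraries and genes that each setting fits. In the main edgeR fit, 18.5% and 19.6% of all genes tested were higher and lower for Pam3CSK4 against IFN-gamma. For the combined group against Pam3CSK4, 6.06% were higher, and for the interaction 8.01% were called in each direction. These shares also move with the setting, so a larger count is not by itself a stronger effect in the 41 genes. Shares over all genes under most of the other settings are not given, so their counts are not read as a change of effect.

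Of 18 results for the named pathway genes against Control, 15 kept their call under every setting, the exceptions being Irf1 with Pam3CSK4 (4 settings) and Irf9 with Pam3CSK4 (4 settings) and with both (1 setting).

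The replicate block gave 36 genes higher with both, 35 with Pam3CSK4, 37 with IFN-gamma and 18 lower for the interaction. Shares over all genes under the block are not given, so these counts are not read as a change of effect. Replicate numbers were not taken to pair libraries, since no label ties them to an animal, batch or day. Deviations of same-numbered libraries correlated with r from -0.719 (IFN-gamma 1 and Control 1) to 0.715 (combined 3 and Control 3). Libraries that held stromal markers also correlated across numbers (0.81 for IFN-gamma 1 and Control 3, 0.779 for combined 3 and IFN-gamma 1). These correlations therefore cannot decide whether libraries were paired.

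The values that changed sign were not called under any of the settings named here. Log2 differences of Pam3CSK4 from IFN-gamma turned to -0.05 for Herc6, -0.009 for Bst2 and 0.067 for Ifitm2 with the block, to 0.086 for Uba7, 0.026 for Ube2l6, 0.023 for Ifitm2 and 0.012 for Phf11d with limma, and to 0.319 for Ifitm2 without the 3 libraries. From Pam3CSK4, the combined group turned to 0.034 for Oas1a with the block, to -0.099 for Ifit3, -0.016 for Mx2, -0.084 for Tdrd7 and -0.027 for Ifi35 with limma, and to -0.164 for Ifit3, -0.008 for Tdrd7 and -0.03 for Tor3a without the 3 libraries. From IFN-gamma, the combined group turned to 0.005 for Tor3a with no filter, and to -0.068 for Ifitm6 and -0.103 for Sp100 without the 3 libraries. Against Control, Ifitm2 turned to 0.058 with Pam3CSK4 under the block, and without the 3 libraries to 0.5 with Pam3CSK4 and 0.182 with IFN-gamma, where Ifitm1 turned to 1.601 with Pam3CSK4.

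With 1 library left out at a time, the results that changed sign ranged as follows on the log2 scale. Against Control, Ifitm2 ranged from -0.015 to 1.205 with both, from -0.718 to 0.501 with Pam3CSK4 and from -0.658 to 0.668 with IFN-gamma, Ifitm1 from -1.937 to 1.615 with Pam3CSK4, and with IFN-gamma Ifitm6 from -0.708 to 1.341 and Ddx60 from -0.341 to 0.139. Pam3CSK4 minus IFN-gamma ranged from -0.107 to 0.061 for Uba7, -0.097 to 0.157 for Herc6, -0.515 to 0.314 for Ifitm2 and -0.031 to 0.19 for Isg15. The combined group minus IFN-gamma ranged from -0.255 to 0.262 for Tor3a, -0.047 to 0.175 for Sp100, -0.119 to 0.043 for Ifi35 and -0.159 to 0.056 for Epsti1. The combined group minus Pam3CSK4 ranged from -0.096 to 0.054 for Oas1a, -0.144 to 0.003 for Oas1g, -0.168 to 0.381 for Mx1, -0.163 to 0.141 for Ifit3, -0.007 to 0.045 for Tdrd7 and -0.03 to 0.494 for Tor3a.

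Low counts limit the precision of Ifitm1, Ifitm6 and the interferon genes.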
